A study of Homo sapiens with 9 samples.

Results

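The transcripts of 10 genes of the AKT, mTOR and AMPK signaling network were followed in DU145 cells with and without knockdown of *FZD6*, which encodes a frizzled receptor for Wnt ligands. The genes are *AKT1*, *MTOR*, *RPTOR*, *RICTOR*, *RPS6KB1*, *EIF4EBP1*, *TSC1*, *TSC2*, *PRKAA1* and *PRKAB2*. They were chosen by name for their roles, but with earlier results of these data known. They are 10 of the 27860 genes with a summed value in the tables, and each was at or above 1 FPKM in all 9 libraries, FPKM being the number of fragments from a gene scaled for transcript length and for the fragments mapped in the library. DU145 is an established human prostate cancer line. Stranded mRNA libraries were made from 3 samples of cells expressing a scrambled shRNA (scramble), 3 of cells expressing shRNA FZD6 #1 and 3 of cells expressing shRNA FZD6 #2, and the labels give all of them the genotype WT. The hairpins were made in lentiviral vectors of the pLKO type, of which the study used a constitutive and a doxycycline-inducible form, and the sources used here do not say which of these the sequenced cells carried. Neither hairpin left *FZD6* at 0. The labels do not say that the 3 samples of a group came from separate cultures, and the p-values then measure only the spread between these samples, which may be technical.

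In this network, growth factor receptors activate PI3K, whose lipid product brings the kinase AKT to the membrane. AKT inhibits the TSC1-TSC2 complex, which otherwise keeps the small GTPase RHEB inactive, and active RHEB switches on the kinase MTOR in the complex that contains RPTOR. That complex phosphorylates S6 kinase and the 4E-BP translation repressors, whereas the MTOR complex that contains RICTOR phosphorylates AKT. AMPK, a trimer of an alpha catalytic, a beta scaffold and a gamma nucleotide-sensing subunit, is switched on when ATP runs low and restrains MTOR through TSC2 and RPTOR. The network controls growth, translation and energy use, and its PI3K branch is often activated in prostate cancer. The signal passes mainly through phosphorylation, which mRNA levels do not measure.

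*FZD6* stood at 20.9, 20.5 and 20.0 FPKM in the scramble libraries, at 9.47, 10.2 and 9.80 FPKM with shRNA FZD6 #1 and at 7.84, 8.79 and 7.69 FPKM with shRNA FZD6 #2, so every library labelled with a hairpin lay below every scramble library. From the confidence bounds in the tables, 35.1 to 43.8 M fragments per library were estimated, and 12209 to 12295 genes reached 1 FPKM. Of 7 epithelial markers 6 were expressed, with a summed level of 1627 to 1816 FPKM. The 5 fibroblast markers summed to at most 0.455 FPKM, the 4 endothelial markers to at most 0.0990 FPKM and the 5 leukocyte markers to 0.678 to 2.22 FPKM, with 2 of them listed at 0 throughout. Across genes, longer transcripts were lower and shorter ones higher after knockdown (Spearman's rho of length and log2 difference −0.44 with shRNA FZD6 #1 and −0.36 with shRNA FZD6 #2, over 12315 genes that share libraries and are not replicates), and the 10 genes have a median transcript length of 5477 bases against 2637 bases for all tested genes. Library 2 of shRNA FZD6 #2 lay away from the other libraries of its group for several of the genes below.

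The 10 genes covered a wide range of levels. *EIF4EBP1*, the 4E-BP1 repressor of cap-dependent translation, was the highest in scramble cells at 191 ± 4.35 FPKM (SD, n = 3), in percentile 96.8 of the tested genes. *AKT1* followed at 89.3 ± 0.814 FPKM and *PRKAA1*, the AMPK alpha 1 catalytic subunit, at 32.9 ± 1.22 FPKM. *RPTOR* (17.7 ± 0.676 FPKM) and *MTOR* (15.0 ± 0.721 FPKM) came next. *TSC2* (10.1 ± 0.326 FPKM) and *RPS6KB1* (9.50 ± 0.346 FPKM) were neighbours whose scramble libraries overlapped. *RICTOR* (6.65 ± 0.535 FPKM), *TSC1* (5.08 ± 0.0774 FPKM) and *PRKAB2* (4.51 ± 0.0973 FPKM) were the lowest. All other neighbours in this order were separated in the 3 scramble libraries. An estimated 885 to 1204 fragments stood behind *PRKAB2* in a library and 8166 to 10368 behind *AKT1*, so sampling of fragments limited the low genes more than the high ones. These counts use full transcript lengths, whereas depth was estimated with shortened lengths, so they are rough and somewhat high.

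**Figure D1:**
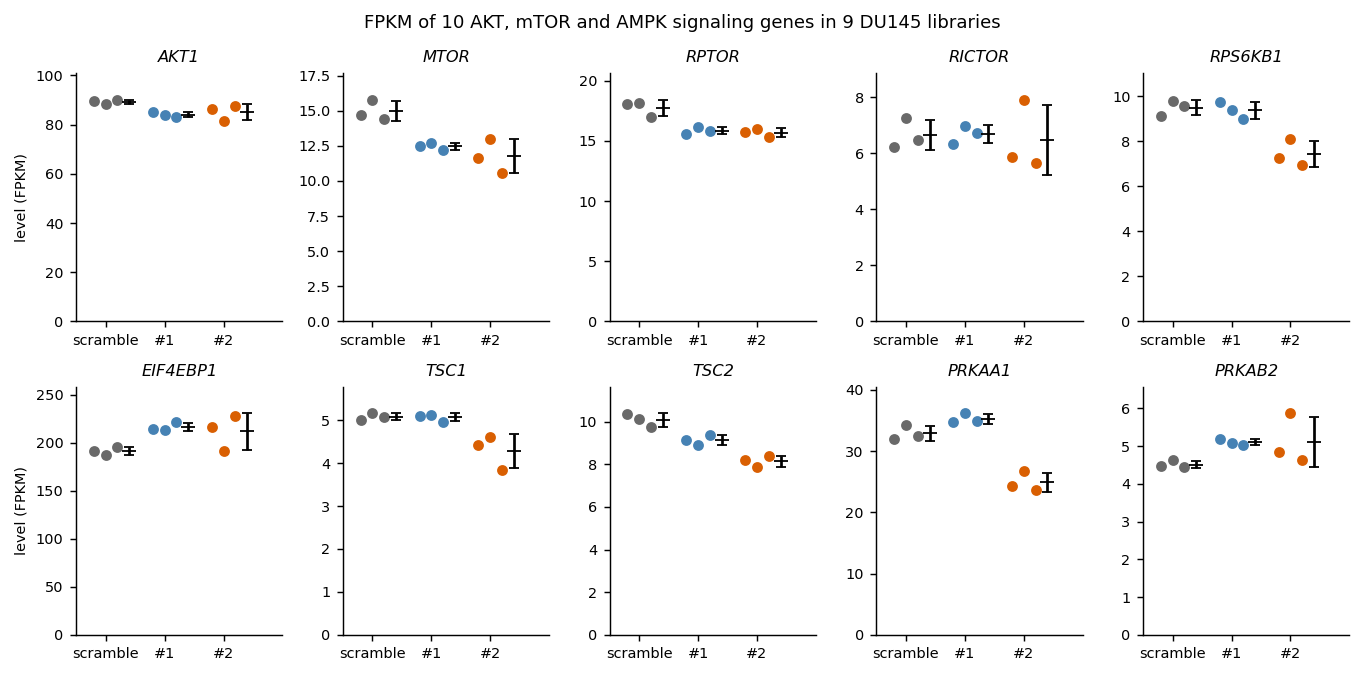
Levels in FPKM (y axis, linear, from 0) of the 10 genes in scramble cells (grey), with shRNA FZD6 #1 (blue) and with shRNA FZD6 #2 (orange). Each point is 1 of 3 libraries, drawn in the order of their numbers, and the black mark is the mean ± SD. *PRKAA1* and *RPS6KB1* are low in the 3 orange libraries only, and *MTOR*, *RPTOR* and *TSC2* are below scramble in blue and orange libraries alike.

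*MTOR*, *RPTOR* and *TSC2* were lower with both hairpins, by 9.40% to 21.5% of their scramble FPKM. With shRNA FZD6 #1 each of these 3 calls was lost when certain single libraries were left out. Of the 3, only *MTOR* still passed with both hairpins once the trend with transcript length was removed. *PRKAA1*, *RPS6KB1* and *TSC1* passed the test against scramble with shRNA FZD6 #2 and not with #1, and were 15.6% to 24.3% lower there. The call of *TSC1* was lost when any scramble library was left out. *EIF4EBP1* was higher with all knockdown libraries as 1 group, a call lost with most single libraries left out and with the length trend removed. The questions were which genes of the network moved with *FZD6* knockdown and whether the hairpins differed. With shRNA FZD6 #1, 3 of the 10 genes passed limma's test at an adjusted p under 0.05, all of them lower, whereas 7.19% of the 12509 genes tested were called lower, 12.8% higher and 20.0% in either direction. With shRNA FZD6 #2, 6 of 10 passed, all lower, against 11.4% of all genes called lower, 16.0% called higher and 27.4% in either direction. With the 6 knockdown libraries as 1 group, 3 were lower and 1 higher, against 7.23% of all genes called lower, 14.4% called higher and 21.6% in either direction. Directly between the hairpins, 3 of 10 were lower with shRNA FZD6 #2 than with #1, against 5.05% of all genes called lower, 1.97% called higher and 7.02% in either direction. All comparisons with scramble share the same 3 scramble libraries. The median log2 difference of the 10 genes was −0.010 with #1 and −0.19 with #2, and that of all tested genes 0.027 and 0.025. *AKT1*, *RICTOR* and *PRKAB2* passed in none of the 4 comparisons. The ranges of the libraries of #1 and of scramble did not overlap for 4 of the 10 genes that were lower and 3 that were higher (17.9% and 28.9% of all genes). For #2 against scramble this held for 7 lower and 1 higher gene (16.6% and 24.0% of all genes), and for #2 against #1 for 4 lower genes (14.5%). When genes were instead required to change at least 1.2-fold at an unadjusted p under 0.01, 0 of 10 passed with #1, 4 with #2 (*MTOR*, *RPS6KB1*, *TSC2* and *PRKAA1*), 2 between the hairpins (*RPS6KB1* and *PRKAA1*) and 1 (*MTOR*) with knockdown as 1 group. Of all genes, 3.9%, 6.32%, 2.85% and 3.33% passed in these comparisons. In bulk RNA, fewer cells with a transcript and less of it per cell cannot be told apart.

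**Figure D2:**
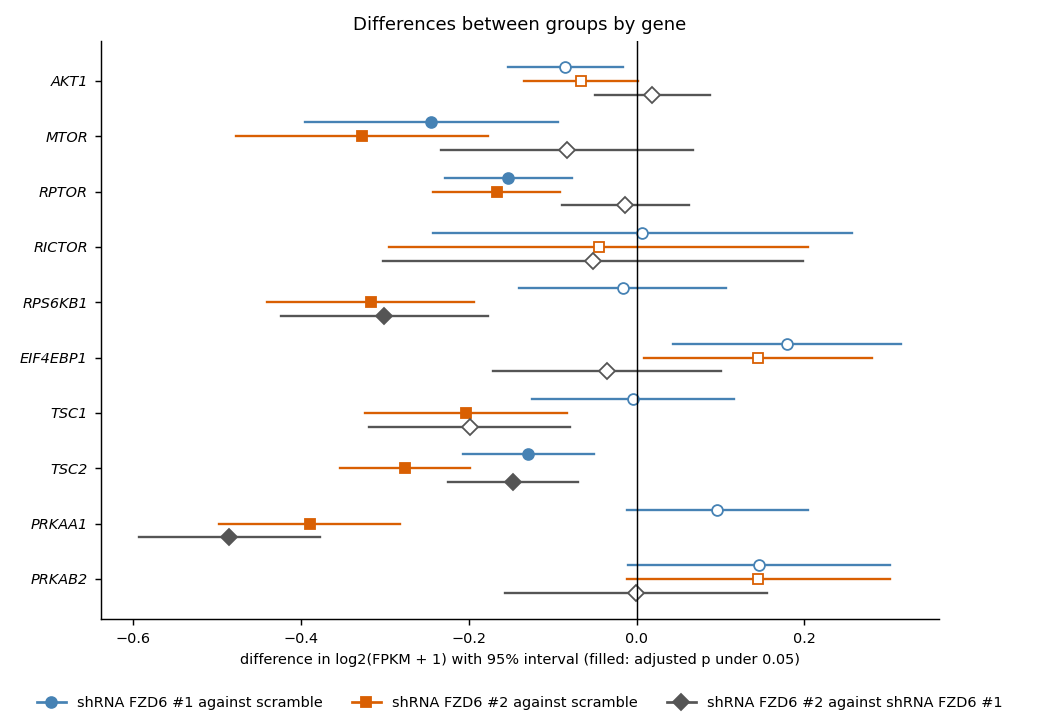
Difference in log2(FPKM + 1) for the 10 genes (x axis) with its 95% interval from limma, for shRNA FZD6 #1 against scramble (circles), shRNA FZD6 #2 against scramble (squares) and shRNA FZD6 #2 against #1 (diamonds), 3 libraries in each group; filled symbols have an adjusted p under 0.05. *PRKAA1* lies at 0.10 with #1 and −0.39 with #2, and the interval of their difference does not reach 0.

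*AKT1* (chromosome 14, 104769349 to 104795748 in GRCh38) stood at 89.5, 88.4 and 90.0 FPKM in scramble libraries, 85.3, 84.0 and 83.1 FPKM with #1 and 86.5, 81.6 and 87.7 FPKM with #2. All knockdown libraries lay below all scramble libraries, by 5.14% on average, but the log2 difference of −0.076 (interval −0.13 to −0.016, adjusted p = 0.0709, limma) did not pass. It passed without #2 library 3 (adjusted p = 0.0467), with quantile normalization (adjusted p = 0.0133) and with the length trend removed, at −0.11 (adjusted p = 0.0330, limma). With #1 it passed without #2 library 2 (adjusted p = 0.0135, against 0.0804 with all libraries). Its paralog *AKT2* was at 25.6 ± 0.652 FPKM in scramble cells, 24.9 ± 0.416 FPKM with #1 and 24.9 ± 0.662 FPKM with #2, and did not pass with knockdown against scramble (adjusted p = 0.319, limma).

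Both genes of the TSC complex core were lower with shRNA FZD6 #2, and *TSC2* with #1 as well. *TSC2* (chromosome 16, 2047985 to 2089491), which encodes its GTPase-activating subunit, stood at 10.4, 10.1 and 9.73 FPKM in scramble libraries, 9.15, 8.90 and 9.36 FPKM with #1 and 8.20, 7.87 and 8.38 FPKM with #2. The 3 groups formed steps without overlap. It fell by 0.13 on the log2 scale with #1 (SE 0.0336, adjusted p = 0.0323, limma) and by 0.28 with #2 (SE 0.0336, adjusted p = 0.00137, limma). The call with #1 was lost without library 1 or 2 of scramble or any library of #1 (highest adjusted p = 0.109). The hairpins differed by −0.15 (adjusted p = 0.0401, limma), a call that was lost with any of the 9 libraries left out (adjusted p from 0.0509 to 0.136). *TSC1* (chromosome 9, 132891349 to 132945378), which encodes the stabilizing subunit, stood at 5.01, 5.17 and 5.08 FPKM in scramble libraries, 5.11, 5.13 and 4.96 FPKM with #1 and 4.42, 4.61 and 3.85 FPKM with #2. Scramble and #1 libraries overlapped, and the 3 libraries of #2 lay below both. Against scramble the log2 difference was −0.20 with #2 (SE 0.0521, adjusted p = 0.0235, limma) and −0.0045 with #1 (interval −0.12 to 0.12), and the call with #2 was lost when any scramble library was left out (highest adjusted p = 0.0750). Between the hairpins it was −0.20 (adjusted p = 0.0616, limma), and −0.21 (adjusted p = 0.00683) with the length trend removed. Without #2 library 2 it was −0.24 and passed (adjusted p = 0.0255).

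*MTOR* (chromosome 1, 11106535 to 11262551), the catalytic kinase of both complexes, stood at 14.7, 15.8 and 14.4 FPKM in scramble libraries, 12.5, 12.7 and 12.2 FPKM with #1 and 11.7, 13.0 and 10.6 FPKM with #2. All 6 knockdown libraries lay below all scramble libraries, as for 9.46% of all genes tested. It fell by 0.24 on the log2 scale with #1 (SE 0.0652, adjusted p = 0.0346, limma) and by 0.33 with #2 (SE 0.0652, adjusted p = 0.00908, limma), or 19.1% over both, and the hairpins differed by −0.083 (interval −0.23 to 0.068). The call with #1 was lost when any scramble or #1 library, or library 1 of #2, was left out (highest adjusted p = 0.111), and that with #2 was kept under each of 21 alternatives. For both hairpins as 1 group it was lost without scramble library 2 (adjusted p = 0.0565). *RPTOR* (chromosome 17, 80544838 to 80966368), the substrate-binding subunit of the rapamycin-sensitive complex, stood at 18.1, 18.1 and 16.9 FPKM in scramble libraries, 15.5, 16.2 and 15.8 FPKM with #1 and 15.7, 16.0 and 15.3 FPKM with #2. Knockdown and scramble libraries did not overlap here either. It fell by 0.15 on the log2 scale with #1 (adjusted p = 0.0168, limma) and by 0.17 with #2 (adjusted p = 0.00863, limma), or 11.1% over both. The call with #1 was lost without library 1 or 2 of scramble or library 1 or 3 of #1 (highest adjusted p = 0.0648). *RICTOR* (chromosome 5, 38937920 to 39074399), which takes the place of RPTOR in the other complex, stood at 6.24, 7.26 and 6.46 FPKM in scramble libraries, 6.33, 6.98 and 6.74 FPKM with #1 and 5.86, 7.91 and 5.65 FPKM with #2. The groups overlapped, and the highest of the 9 values was library 2 of #2. Its log2 difference of −0.019 (interval −0.22 to 0.18, adjusted p = 0.903, limma) turned to 0.10 with the length trend removed. Of the 8 tested other subunits and assembly factors of these complexes, such as *MLST8* and *AKT1S1*, 0 passed limma's test with all knockdown libraries, and 1, *MAPKAP1*, a RICTOR partner named after its value was seen, was higher with #2 (log2 difference 0.14, SE 0.0377, adjusted p = 0.0256).

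*MTOR*, *RPTOR* and *TSC2* are the members that were lower with both hairpins, and the RefSeq promoter windows of the 3 (GRCh38.p14, from 250 bases before to 50 bases after the start, 5′ to 3′ on the gene's strand) are printed so that a reader can see what lies at their starts. Capitals mark the GC box GGGCGG, the motif bound by SP1-family factors, on either strand. 
*MTOR* (chr1:11262502-11262801, minus strand): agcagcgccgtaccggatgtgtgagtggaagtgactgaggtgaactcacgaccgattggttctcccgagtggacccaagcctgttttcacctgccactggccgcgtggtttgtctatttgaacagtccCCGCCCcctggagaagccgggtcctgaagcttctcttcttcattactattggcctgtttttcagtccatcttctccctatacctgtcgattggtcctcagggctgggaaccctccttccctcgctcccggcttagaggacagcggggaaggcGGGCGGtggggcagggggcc
*RPTOR* (chr17:80544588-80544887, plus strand): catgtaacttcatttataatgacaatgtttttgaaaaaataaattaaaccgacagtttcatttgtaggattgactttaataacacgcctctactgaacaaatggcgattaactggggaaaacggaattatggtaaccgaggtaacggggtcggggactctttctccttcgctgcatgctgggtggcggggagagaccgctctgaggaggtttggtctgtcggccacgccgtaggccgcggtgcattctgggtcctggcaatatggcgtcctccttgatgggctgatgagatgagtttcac
*TSC2*, the first of its windows (chr16:2047735-2048034, plus strand): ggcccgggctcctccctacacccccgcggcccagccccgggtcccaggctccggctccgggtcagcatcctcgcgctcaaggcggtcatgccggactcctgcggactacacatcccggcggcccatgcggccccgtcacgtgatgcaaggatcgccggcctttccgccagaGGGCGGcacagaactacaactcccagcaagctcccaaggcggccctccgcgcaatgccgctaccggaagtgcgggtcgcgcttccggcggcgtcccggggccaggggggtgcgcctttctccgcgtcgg
The *MTOR* window holds 2 GC boxes and is 59.3% G or C, and the *TSC2* window holds 1 and is 73.0% G or C. The *RPTOR* window holds 0 and is 48.0% G or C. Its 1 match to TATAAA is on the opposite strand, printed as tttata near the upstream end of the window. Windows were given for 9 of the 10 genes, 11 in all, since *AKT1* and *TSC2* have more than 1 and those of *TSC2* overlap. A GC box lies in 9 of the 11 windows, from 7 of the 9 genes, against 45% of 35116 promoter windows of the same length. The 11 windows are 48.0% to 83.3% G or C, and the median of all windows is 58.7%. The E-box CACGTG was found in 1 of the 11, a *TSC2* window, against 7.26% of all windows, and the forkhead motif TGTTTAC in 0, against 3.42%. The *PRKAA1* window, 77.0% G or C, holds 8 GC boxes and the *RPS6KB1* window 0. These are matches of letters, and no binding was measured.

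Among the genes of the main substrates of the RPTOR complex, *RPS6KB1* was lower with #2, and *EIF4EBP1* was higher only with all knockdown libraries as 1 group. *RPS6KB1* (chromosome 17, 59893121 to 59950574), which encodes S6 kinase 1, stood at 9.12, 9.80 and 9.58 FPKM in scramble libraries, 9.76, 9.39 and 9.00 FPKM with #1 and 7.28, 8.09 and 6.95 FPKM with #2. Scramble and #1 libraries overlapped, and the 3 libraries of #2 lay below all of them. It fell by 0.32 on the log2 scale with #2 (SE 0.0534, adjusted p = 0.00476, limma), or 21.7%, against −0.016 with #1 (interval −0.14 to 0.11), and the hairpins differed by −0.30 (adjusted p = 0.0154, limma). The difference between the hairpins lost its call with library 1 or 2 of #1 or library 1 of #2 left out (highest adjusted p = 0.0658), and in a fit of those 6 libraries alone (adjusted p = 0.0687). *RPS6KB2*, which encodes S6 kinase 2, was at 40.1, 35.2 and 36.1 FPKM in scramble libraries, 40.8, 41.6 and 42.8 FPKM with #1 and 42.4, 39.3 and 42.4 FPKM with #2, a log2 difference with knockdown of 0.16 (SE 0.0437, adjusted p = 0.0305). The call was lost without library 2 or 3 of scramble, #1 library 2 or 3 or #2 library 1 or 3 (highest adjusted p = 0.136), and with the length trend removed, at 0.087 (adjusted p = 0.174). *RPS6KB1* made up 20.4% ± 1.69 of S6 kinase transcripts in scramble cells, 18.4% ± 0.972 with #1 and 15.3% ± 1.59 with #2.

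*EIF4EBP1* (chromosome 8, 38030534 to 38060365) stood at 191, 187 and 195 FPKM in scramble libraries, 214, 214 and 222 FPKM with #1 and 217, 191 and 228 FPKM with #2. The libraries of #1 lay above all scramble libraries, and library 2 of #2 lay among the scramble libraries. The log2 difference with all knockdown libraries was 0.16 (SE 0.0497, adjusted p = 0.0468) by limma, just inside the threshold. It was 0.18 with #1 (adjusted p = 0.0677) and 0.14 with #2 (adjusted p = 0.107), and without library 2 of #2 both passed, at 0.18 (adjusted p = 0.00566) and 0.22 (adjusted p = 0.00326, limma). With #1 it also passed without #2 library 3 (adjusted p = 0.0378). The call with all knockdown libraries was lost when any library other than library 2 of #2 was left out (highest adjusted p = 0.161). *EIF4EBP2* was at 18.0 ± 0.423 FPKM in scramble cells, 18.0 ± 0.677 FPKM with #1 and 20.2 ± 1.41 FPKM with #2. Its difference with #2 was 0.15 (adjusted p = 0.0560, and 0.0192 with the replicate number as a block, limma). *EIF4EBP3* was listed at values that round to 0 in 6 libraries and was at most 0.769 FPKM.

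*PRKAA1* (chromosome 5, 40759389 to 40798374) had the largest difference of the 10 genes. It stood at 32.0, 34.3 and 32.4 FPKM in scramble libraries, 34.7, 36.2 and 34.9 FPKM with shRNA FZD6 #1 and 24.4, 26.7 and 23.7 FPKM with shRNA FZD6 #2. The 3 libraries of #2 lay below all others, and the 3 of #1 above all scramble libraries. Against scramble, the log2 difference was −0.39 with #2 (SE 0.0467, adjusted p = 0.00132, limma), a fall of 24.3%, and 0.10 with #1 (interval −0.012 to 0.20, adjusted p = 0.186, limma). The hairpins differed from each other by −0.49 (SE 0.0467, adjusted p = 0.00107, limma), a call kept under each of the 22 alternatives with limma's adjusted p. The hairpins lay on opposite sides of scramble, and the 6 knockdown libraries as 1 group showed −0.15 (interval −0.48 to 0.18, adjusted p = 0.513, limma).

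No other AMPK subunit was called lower against scramble with either hairpin. *PRKAA2*, the alternative alpha subunit, made up 7.09% ± 0.0797 (SD, n = 3) of the alpha transcripts in scramble cells, 6.48% ± 0.515 with #1 and 9.48% ± 0.434 with #2, while its own level was 2.51 ± 0.0742, 2.44 ± 0.255 and 2.62 ± 0.287 FPKM. *PRKAB2* (chromosome 1, 147155106 to 147172470), the beta 2 subunit, stood at 4.48, 4.62 and 4.44 FPKM in scramble libraries, 5.19, 5.07 and 5.04 FPKM with #1 and 4.84, 5.88 and 4.64 FPKM with #2. Every knockdown library lay above every scramble library, as for 16.4% of all genes tested, and the highest was library 2 of #2. The log2 difference of the 6 knockdown libraries was 0.15 (SE 0.0563, adjusted p = 0.0988) by limma, and without library 2 of #2 that with #1 was 0.15 (adjusted p = 0.0103, limma). This sum includes noncoding transcripts. The coding transcript alone was at 0.32 with knockdown (SE 0.128, adjusted p = 0.232 among single transcripts, limma).

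*PRKAB1*, the beta 1 subunit and the more abundant of the pair, was at 16.4, 16.9 and 16.3 FPKM in scramble libraries, 19.3, 19.4 and 20.5 FPKM with #1 and 17.0, 16.4 and 18.1 FPKM with #2. It rose with #1 by a log2 difference of 0.24 (SE 0.0399, adjusted p = 0.00695) and was lower with #2 than with #1, at −0.19 (adjusted p = 0.0268, limma). Both expressed gamma subunits were higher with knockdown. *PRKAG1* was at 34.0, 33.1 and 33.7 FPKM in scramble libraries, 40.4, 41.3 and 40.7 FPKM with #1 and 37.9, 39.3 and 38.2 FPKM with #2, without overlap between knockdown and scramble, a log2 difference of 0.23 (SE 0.0317, adjusted p = 0.00227) by limma. *PRKAG2* rose by 0.15 (SE 0.0457, adjusted p = 0.0428), a call lost without any of the scramble libraries, #1 library 2 or 3 or #2 library 3 (highest adjusted p = 0.169) and with the length trend removed (adjusted p = 0.151), and *PRKAG3* was listed at 0 in all 9 libraries. *STK11*, which encodes the AMPK-activating kinase LKB1, was at 5.64 ± 0.273 FPKM in scramble cells, 5.92 ± 0.361 FPKM with #1 and 5.32 ± 0.238 FPKM with #2 and passed no comparison. The ratio of *PRKAA1* to *PRKAB2* was 7.29 ± 0.135 in scramble cells, 6.92 ± 0.226 with #1 and 4.89 ± 0.306 with #2.

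**Figure D3:**
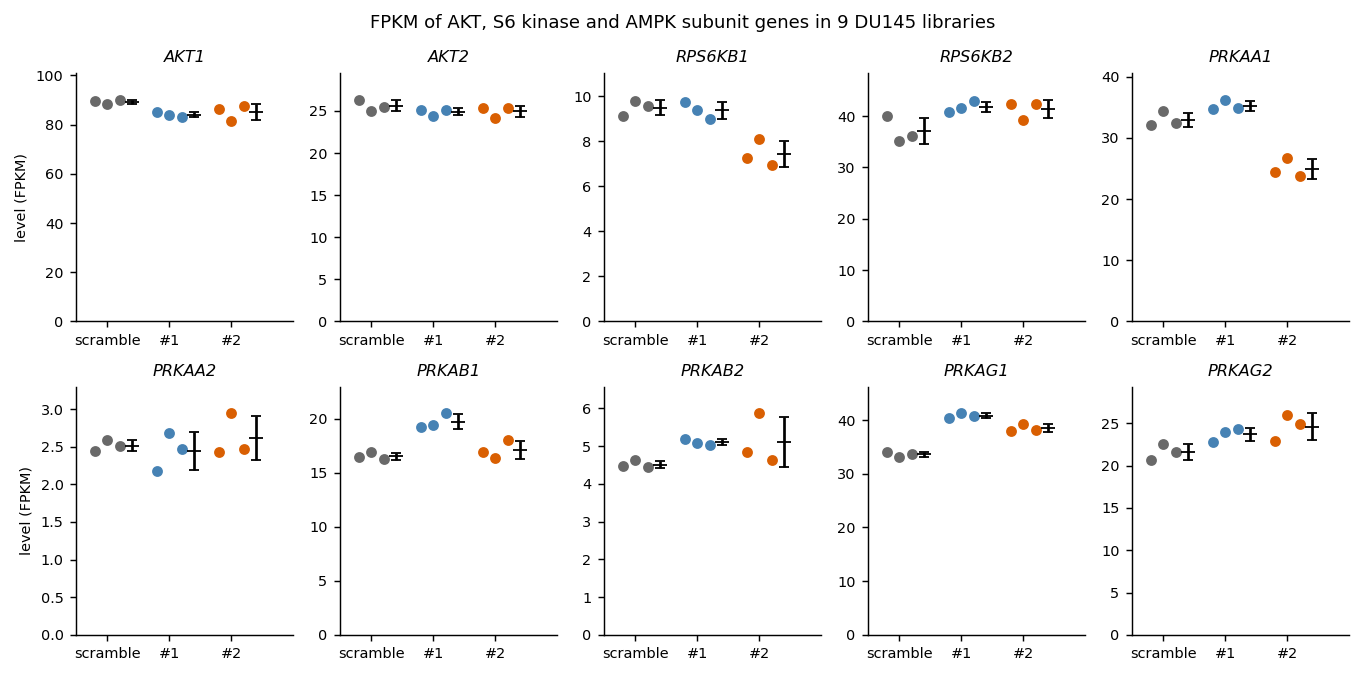
Levels in FPKM (y axis, linear, from 0) of the AKT, S6 kinase and AMPK alpha, beta and gamma genes in the same 9 libraries, drawn as 1 point per library with the mean ± SD in black, scramble in grey, shRNA FZD6 #1 in blue and shRNA FZD6 #2 in orange. With #2, *PRKAA1* and *RPS6KB1* lie below scramble, whereas *PRKAA2* overlaps scramble and *RPS6KB2* does not lie below it, and *PRKAG1* is higher in all 6 knockdown libraries than in scramble.

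The tables list the 10 genes as 60 RefSeq transcripts, from 1 for *MTOR* and *EIF4EBP1* to 24 for *RPS6KB1*, and 20 of them reached a mean of 1 FPKM. Cufflinks divides fragments shared by overlapping transcripts by its own model. Of the 20, 1 passed limma's test with knockdown, the only *MTOR* transcript (adjusted p = 0.0439), against 4.29% of 19658 transcripts tested. For *RPTOR* 2 transcripts were listed, and whether they changed unlike each other was not tested. The full-length NM_020761 was at 15.1 ± 0.277 FPKM in scramble cells, 14.3 ± 0.641 FPKM with #1 and 14.4 ± 0.968 FPKM with #2, and the shorter NM_001163034 at 2.60 ± 0.720, 1.50 ± 0.910 and 1.23 ± 0.735 FPKM. Neither passed on its own (adjusted p = 0.496 and 0.290 with knockdown, limma). For *PRKAA1*, NM_006251 held 38.7% to 73.4% of the gene's FPKM in a library and NM_001355029 18.0% to 45.1%. With #2 they averaged 13.0 and 8.07 FPKM, against 17.4 and 13.0 FPKM in scramble cells, so the gene's sum was steadier between libraries than its split. In *TSC1*, NM_000368 took 32.2% to 92.5%. In *AKT1*, NM_001014431 held 78.0% to 85.9% of the sum, and NM_005163 3.20% to 6.04%. The coding transcript of *PRKAB2* averaged 76.7% of the sum in scramble cells, 86.3% with #1 and 92.6% with #2.

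With the trend of expression with transcript length removed in each library, 2 of the 10 genes were called higher and 2 lower with #1, against 13.2% of 12315 genes called, and 1 higher and 5 lower with #2, against 24.2%. *MTOR* remained lower with both hairpins at −0.12 (adjusted p = 0.0396) and −0.22 (adjusted p = 0.00202, limma), smaller than the −0.24 and −0.33 before. *RPTOR* no longer passed with either hairpin, at −0.079 (adjusted p = 0.137) and −0.10 (adjusted p = 0.0521). *TSC2* passed with #2 at −0.23 (adjusted p = 0.0154) and not with #1 at −0.077 (adjusted p = 0.360). *EIF4EBP1*, whose transcript of 1020 bases is the shortest of the 10, was at 0.054 with knockdown (adjusted p = 0.344). *PRKAB2* now passed with both hairpins, at 0.19 (adjusted p = 0.0340) and 0.19 (adjusted p = 0.0217). *PRKAA1* was higher with #1 at 0.13 (adjusted p = 0.0237) and lower with #2 at −0.35 (adjusted p = 2.39e-04, limma). *RPS6KB1* stayed lower with #2 at −0.27 (adjusted p = 0.00175). Whether the length trend arose in the cells or in the libraries was not tested.

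**Figure D4:**
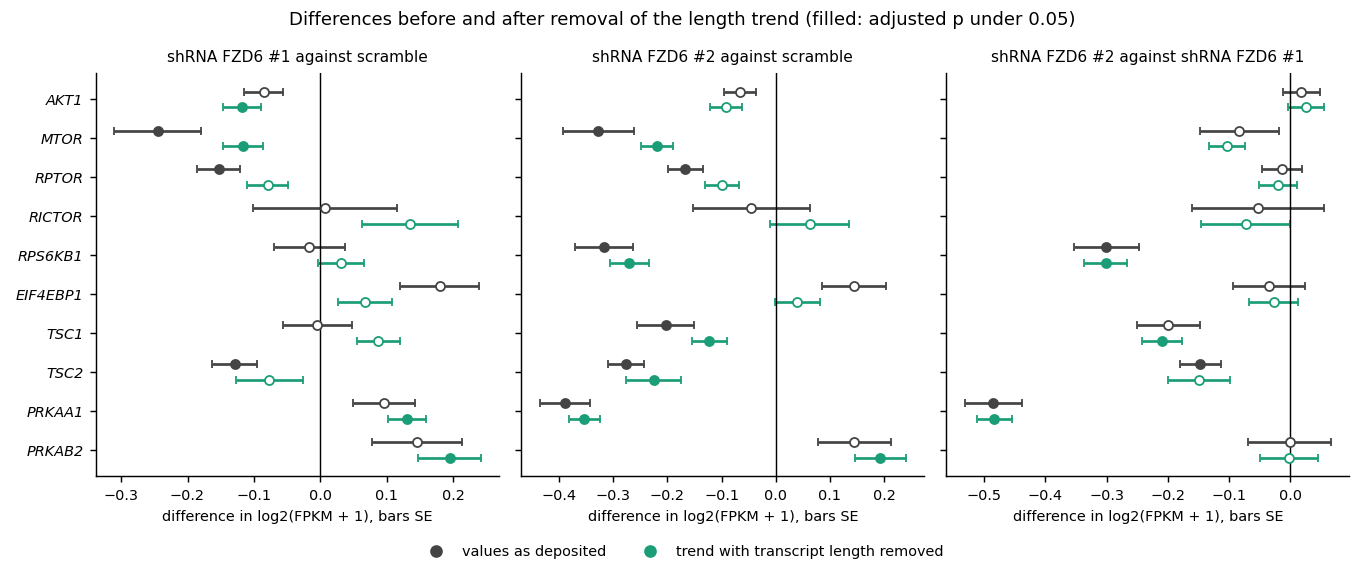
Differences in log2(FPKM + 1) of the 10 genes (x axis, bars are the SE from limma) for each hairpin against scramble and between the hairpins, from the values as deposited (grey) and with the trend with transcript length removed (green); filled points have an adjusted p under 0.05. *RPTOR* and *EIF4EBP1* move toward 0 against scramble, whereas *PRKAA1* between the hairpins stays at −0.49 and −0.48.

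Of 117 further genes of the network in 7 lists, 106 were tested. With knockdown, 9 were called higher and 14 lower (21.7% of the 106, against 21.6% of all tested genes), and their median log2 difference was −0.020 against 0.027 for all genes. The genes named below are the up to 3 called in each direction with the largest differences in each list. Among PI3K and AKT regulators, 4 of 19 were called, all lower. *IRS2*, an adaptor of the insulin receptor, was at 9.27 to 9.62 FPKM in scramble libraries and 7.36 to 7.78 FPKM in the 6 knockdown libraries (log2 difference −0.29, SE 0.0256, adjusted p = 5.27e-04). *PHLPP1*, a phosphatase of AKT, was at 6.39 to 6.60 and 5.16 to 5.78 FPKM (log2 difference −0.23, SE 0.0360, adjusted p = 0.00371), and *PIK3R3*, a regulatory subunit of PI3K, at 3.74 to 3.83 and 2.91 to 3.52 FPKM (log2 difference −0.17, SE 0.0444, adjusted p = 0.0244). The genes that were lower thus included an activator and an inhibitor of AKT.

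In the list of RHEB and lysosomal amino acid sensing, 4 of 33 were higher and 2 lower. *SEH1L*, a subunit of the GATOR2 complex, rose by 0.21 (SE 0.0328, adjusted p = 0.00419) and the arginine sensor *CASTOR1* by 0.28 (SE 0.0621, adjusted p = 0.0141). *LAMTOR1*, which anchors the Ragulator complex to the lysosome, rose by 0.17 (SE 0.0441, adjusted p = 0.0239), and was at 0.072 (adjusted p = 0.163) with the length trend removed. *SESN3*, a sestrin, was lower (−0.21, adjusted p = 0.0145) and did not pass with the length trend removed (adjusted p = 0.400).

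Among substrates and readers of the MTOR complexes, 3 of 15 were higher and 3 lower. *RPS6*, the ribosomal protein that S6 kinase phosphorylates, was at 796 to 841 FPKM in scramble libraries and 934 to 999.5 FPKM in knockdown libraries (log2 difference 0.23, SE 0.0268, adjusted p = 0.00144), and *SGK1*, a kinase activated by the RICTOR complex, rose by 0.28 (SE 0.0707, adjusted p = 0.0226), a call lost without library 3 of scramble (adjusted p = 0.0631) and with the length trend removed (adjusted p = 0.0584). *EIF4G1*, the translation initiation scaffold that 4E-BPs compete with, was at 209 to 218 and 171 to 187 FPKM (log2 difference −0.26, SE 0.0308, adjusted p = 0.00156). *GRB10*, an adaptor stabilized by MTOR, was lower at a log2 difference of −0.19 (adjusted p = 0.00166), as was *ULK1*, the autophagy kinase, at −0.12 (adjusted p = 0.0332) and −0.078 (adjusted p = 0.277) without the length trend.

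Among AMPK substrates, 3 of 10 were called, all lower. *ACACA*, the acetyl-CoA carboxylase of fatty acid synthesis, was at 17.4, 18.6 and 17.4 FPKM in scramble libraries, 13.9, 13.9 and 13.4 FPKM with #1 and 12.3, 13.7 and 11.2 FPKM with #2, the largest called difference of the lists (log2 difference −0.42, SE 0.0659, adjusted p = 0.00391). It remained lower with the length trend removed (−0.29, adjusted p = 0.0106). *ULK2*, another autophagy kinase, was at a log2 difference of −0.25 (adjusted p = 0.00465) and *SREBF1*, a regulator of lipid synthesis, was at −0.13 (adjusted p = 0.0151; 0.0523 without the length trend). Among AKT substrates, 2 of 9 were called, both lower. *FOXO4*, a forkhead factor that AKT keeps out of the nucleus, was at 5.47, 4.73 and 5.04 FPKM in scramble libraries, 3.77, 4.02 and 3.55 FPKM with #1 and 3.57, 3.50 and 3.60 FPKM with #2 (log2 difference −0.38, SE 0.0487, adjusted p = 0.00182), and *GSK3B*, a kinase inhibited by AKT, was at −0.18 (adjusted p = 0.0267; 0.115 without the length trend). In the list of other AMPK subunits and upstream kinases, 2 of 12 were higher, the gamma subunits described above, and 0 of 8 other MTOR complex genes passed. Over the 7 lists, 8 genes were called higher and 9 lower with knockdown once the length trend was removed, against 12.8% of 12315 genes called. As deposited, 9 were higher and 11 lower with #1 (18.9% of the 106 tested, against 20.0% of all tested genes). With #2, 8 were higher and 22 lower (28.3%, against 27.4%). The shares with each hairpin were thus close to those of all genes. Of the genes named from the lists, *IRS2*, *PHLPP1*, *SEH1L*, *RPS6*, *EIF4G1*, *GRB10*, *PRKAG1*, *ACACA*, *ULK2* and *FOXO4* kept their calls without any 1 library. *PIK3R3* and *GSK3B* lost theirs without any scramble library (highest adjusted p = 0.0849 and 0.104), as did *ULK1*, which also lost it without #1 library 2 or 3 or #2 library 3 (highest adjusted p = 0.142). *CASTOR1* and *SREBF1* lost theirs without scramble library 1 or 2 (highest adjusted p = 0.0638 and 0.0698), and *LAMTOR1* and *SESN3* without scramble library 2 or 3 (highest adjusted p = 0.106 and 0.0607).

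**Figure D5:**
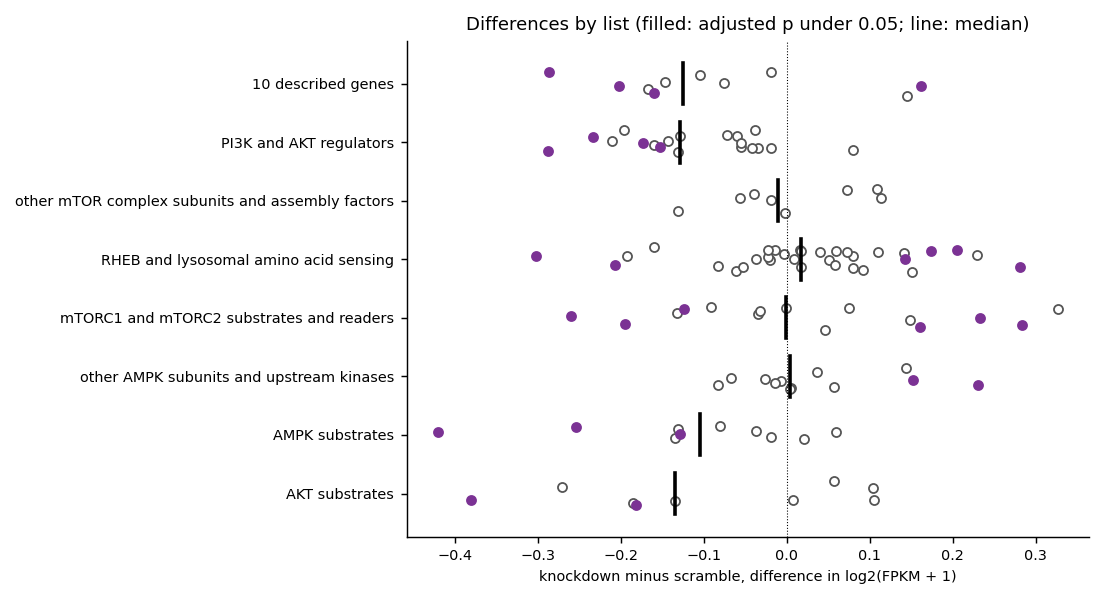
Difference in log2(FPKM + 1) between the 6 knockdown and the 3 scramble libraries (x axis) for the 10 described genes and 7 lists of further pathway genes; each point is a gene, filled points have an adjusted p under 0.05 by limma, vertical position within a row carries no value and the line is the median of the list. Called genes of the PI3K, AMPK substrate and AKT substrate lists all lie below 0, and those of the lysosomal list on both sides.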

How the data were processed

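RNA-seq was performed on 9 libraries of DU145 cells. Per the methods, the authors aligned reads by STAR and obtained FPKM from Cufflinks (versions not given in the sources used here). The deposited FPKM tables hold 83497 entries for each library with loci of hg38, whereas the methods name mm10. They contain no counts, so depth was estimated from the bounds that Cufflinks prints beside each value, and precision is limited by 3 libraries per group. All 9 tables were mapped to samples, and 0 value columns stayed unmapped. The FPKM of all RefSeq accessions of a gene were added up (72645 of 73240 matched in a RefSeq table of GRCh38.p14), and 42 genes were dropped for an entry whose Cufflinks status was not OK, *LARP1* among them. A gene was tested if it averaged 1 FPKM or more, on log2(FPKM + 1), a scale that understates changes of low genes, by limma 3.58.1 (eBayes with trend, R 4.3.3) with Benjamini-Hochberg adjustment over 12509 genes and a threshold of 0.05. As in the study, knockdown (6 libraries) was set against scramble (3) in a model of 2 groups, and the hairpins were contrasted in a model of 3. The model of 2 groups takes the 6 libraries as replicates of 1 condition, though they come from 2 hairpins. Its p-values therefore do not measure how far a further hairpin would differ. The effect of other settings was examined, namely pseudocounts (0.1, 0.01), filters (none, 5 FPKM), median centring, quantile normalization, lowess removal of a length trend (span 0.3, GENCODE lengths for 98.4% of tested genes), the replicate number as a block, eBayes without trend, primary chromosomes, protein-coding accessions, a 1.2-fold change at an unadjusted p under 0.01 (limma's p in place of the study's test, so not its criteria as run), other model forms and the omission of each library. Deviations from the group mean were correlated between libraries of different groups (Spearman's rho). For scramble and shRNA FZD6 #2, rho was 0.158 to 0.398 with the same number and −0.347 to 0.206 with different numbers. For scramble and #1 it was 0.026 to 0.170 and −0.166 to 0.119, and for #1 and #2 0.052 to 0.235 and −0.185 to 0.097. In each case the ranges overlapped. The labels do not say what the numbers mark. The members and lists were chosen with earlier results of these data known. Named are the 10 members, their paralogs, *STK11* and, per list, up to 3 genes called in each direction with knockdown; some items that this rule names are not reported here, and others are said to be chosen after their values were seen. Promoter windows are from RefSeq, and no protein sequence was used here. Python 3.11.15 with pandas 2.3.3, numpy 2.4.6 and matplotlib 3.10.9 served for tables and figures.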

Additional observations from a re-analysis of the deposited data

Results flagged for a closer look

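The effects of the hairpins differed, by limma's test of shRNA FZD6 #2 against #1, for *PRKAA1* (−0.49 on the log2 scale, higher than scramble in 3 of 3 libraries of #1 and lower in 3 of 3 of #2), *RPS6KB1* (−0.30), *TSC2* (−0.15) and, outside the 10 genes, *PRKAB1* (−0.19). The *PRKAA1* call was kept with each library left out. That of *TSC2* was lost with any of the 9 left out (adjusted p from 0.0509 to 0.136, limma). That of *RPS6KB1* was lost without library 1 or 2 of #1 or library 1 of #2 (highest adjusted p = 0.0658, limma). *FZD6* itself differed by −0.25 (adjusted p = 0.0213), being lower with #2, and this call was lost without #1 library 2 or 3 or #2 library 1 or 3 (highest adjusted p = 0.0851, limma). What part the depth of knockdown had in these differences was not tested. Among the 6 knockdown libraries, 0 of the 11 genes tested (the 10 and *FZD6*) had a library far enough from the rest to be singled out by Dixon's criterion, which chance would meet for about 1 in 20 groups. These 6 libraries join both hairpins, and a difference between the hairpins widens the range used by the criterion. It therefore cannot judge a library, such as library 2 of #2, against its own group.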

How the results depend on the processing

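The falls of *MTOR*, *TSC2*, *RPS6KB1* and *PRKAA1* with shRNA FZD6 #2 and the difference of *PRKAA1* between the hairpins kept their direction and passed under each alternative with an adjusted p; the other calls of members were each lost under at least 1. The causes of the changes were not tested. With limma's unadjusted p under 0.01 and a 1.2-fold change, members called were 1 with knockdown and 0 with shRNA FZD6 #1, and genes called 416 with knockdown, 488 with #1, 790 with #2 and 357 between the hairpins. Without a filter, 1 member was called with #1 and 0 member transcripts with knockdown. Fitting the 6 knockdown libraries only gave 1 member and 381 genes between the hairpins. Removal of the length trend gave 1574 genes with knockdown and 1630 with #1, and 1263 and 1539 together with the replicate block, with 0 member transcripts in each case, as with eBayes without trend. With the replicate number as a block, members called were 4 with knockdown, 4 with #1, 6 with #2 and 2 between the hairpins, where *TSC2* was lost (adjusted p = 0.0571) and, with #1, *EIF4EBP1* was gained (adjusted p = 0.0364). The paired fit changed no call of a member with #2. Leaving out each library gave 1 (without scramble library 2) to 4 members and 1219 to 3343 genes with knockdown, 0 to 6 members and 1190 to 3686 genes with #1, 5 to 7 members and 2222 to 4209 genes with #2, 1 to 3 members and 373 to 1292 genes between the hairpins, and 0 to 2 member transcripts. The highest counts of genes came without library 2 of #2, where 4, 6, 7 and 3 members were called. Members with #1 were 0 without library 1 or 2 of scramble or library 1 or 3 of #1. Small differences that were not called changed sign. With the length trend removed, with or without the block, *RICTOR* was at 0.10 with knockdown and 0.063 with #2, *RPS6KB1* at 0.031 and *TSC1* at 0.087 with #1, and *AKT2* at 0.0050 with knockdown. Median centring put *PRKAA2* at −0.00044 with knockdown, *RICTOR* at −0.0014 with #1 and *PRKAB2* at 0.0057 between the hairpins, where quantile normalization gave 0.00015 and protein-coding accessions 0.084. Over the libraries left out, the ranges that cross 0 were, with knockdown, −0.067 to 0.037 for *RICTOR*, −0.028 to 0.035 for *PRKAA2* and −0.041 to 0.017 for *STK11*. With #1 they were −0.032 to 0.063 for *RICTOR*, −0.043 to 0.010 for *RPS6KB1* and −0.013 to 0.0084 for *TSC1*, and with #2 −0.18 to 0.032 for *RICTOR*. Between the hairpins they were −0.0020 to 0.050 for *AKT1*, −0.028 to 0.0032 for *RPTOR*, −0.19 to 0.025 for *RICTOR*, −0.090 to 0.038 for *EIF4EBP1* and −0.088 to 0.055 for *PRKAB2*. A filter of 5 FPKM left no value for genes below it.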

Other observations

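Outside the 10 genes, 8 of the 106 tested genes of the other lists were lower with shRNA FZD6 #2 than with #1 and 0 were higher. The 7.55% called was close to the 7.02% of all tested genes called in either direction (5.05% lower and 1.97% higher). The 8, named after their values were seen, are *PHLPP2*, *IRS1*, *TBC1D7*, *LAMTOR3*, *SAMTOR*, *ITFG2*, *PRKAB1* and *CDKN1B*. Whether their calls hold with single libraries left out is not given here. Of all genes, 878 were called between the hairpins, and 373 to 1292 with a library left out. *TBC1D7*, the third subunit of the TSC complex, was at 16.1, 15.6 and 16.0 FPKM in scramble libraries, 16.9, 18.0 and 16.6 FPKM with #1 and 14.6, 12.7 and 13.2 FPKM with #2, a difference between the hairpins of −0.33 (SE 0.0515, adjusted p = 0.00967) by limma. *TSC1* and *TSC2* also had their lowest means with #2. The difference between the hairpins did not pass for *TSC1*, and for *TSC2* its call was lost with any library left out. *TBC1D7* was picked for its lower value with #2, so a pattern over the complex cannot be judged from it. *CDKN1B*, which encodes the cell cycle inhibitor p27, was at 20.9, 20.6 and 21.0 FPKM in scramble libraries, 20.5, 20.1 and 20.6 FPKM with #1 and 15.4, 17.7 and 15.6 FPKM with #2 (between the hairpins, log2 difference −0.32, SE 0.0476, adjusted p = 0.00794). *SAMTOR*, a sensor of S-adenosylmethionine, was at 2.91, 3.23 and 3.17 FPKM in scramble libraries, 2.93, 2.96 and 2.80 FPKM with #1 and 2.24, 2.35 and 2.35 FPKM with #2 (log2 difference −0.23, SE 0.0438, adjusted p = 0.0189), and *LAMTOR3*, a Ragulator subunit, at 3.03, 3.26 and 3.44, then 3.46, 3.69 and 3.46, then 2.79, 2.79 and 2.74 FPKM in the same order of groups (log2 difference −0.26, SE 0.0443, adjusted p = 0.0122). *PHLPP2*, a phosphatase of AKT, differed by −0.29 (SE 0.0672, adjusted p = 0.0438), *IRS1* by −0.19 (SE 0.0365, adjusted p = 0.0227) and *ITFG2*, a KICSTOR subunit, by −0.20 (SE 0.0385, adjusted p = 0.0194).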
